A study of Mus musculus with 2 samples.

Results

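Cholesterol synthesis in the adrenal gland was followed through 28 genes: enzymes that build cholesterol from acetyl-CoA and genes grouped under the control of SREBP2, the transcription factor of this pathway. The genes were chosen by name, as a list of the pathway and its regulators, and not by their measured values. Earlier results of these data were known when they were chosen. All 28 were found among the 55536 annotated genes of the deposited tables. They comprise 2 thiolases, 7 enzymes of the mevalonate and isoprenoid steps, 1 enzyme of the geranylgeranyl branch, 11 enzymes of the sterol steps and 7 genes of SREBP2 control. Mylip, induced by the sterol-sensing LXR receptors, is counted among the last 7 by the list alone, and a role of it in SREBP2 control was not tested.

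Total RNA was sequenced from adrenal glands of male B6CASTF1/J mice, F1 hybrids of C57BL/6J and CAST/EiJ parents, at 10 days of age, with no treatment named. A single group of 2 biological replicates was available, with 1 library each from 300 ng of RNA and with ERCC spike-ins, synthetic transcripts added in known amounts. Both libraries carry the same donor identifier, and the labels contradict each other on the animal of replicate 2, so differences between the libraries cannot be assigned to animals and may be technical. There is no second condition, so levels and the spread between the libraries are given without p-values; no exact two-sided test on 2 libraries can go below p = 0.5.

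Cholesterol synthesis starts with acetyl-CoA, passes through mevalonate and the isoprenoid pyrophosphates to squalene, and ends with the cyclisation of squalene and the trimming of lanosterol to cholesterol. SREBP2 is made as a precursor in the endoplasmic reticulum and is carried by SCAP to the Golgi apparatus, where the site-1 and site-2 proteases release its active domain. When sterols are plentiful, INSIG proteins hold SCAP in the endoplasmic reticulum and the pathway is turned down. The adrenal cortex uses cholesterol, both made in the cell and taken up from lipoproteins, as the precursor of steroid hormones.

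Promoter sequences show letters that these genes share around their RefSeq starts. RefSeq windows of 300 bases on GRCm38.p6, running from 250 bases before a transcription start, were on hand for 24 of the 28 genes, in 30 windows. Acat1, Fdps, Fdft1 and Sqle had none in the table used. Each window was searched on both strands for the letters TCACNCCAC (the sterol regulatory element that SREBPs bind), CCAAT (the CCAAT box bound by NF-Y, a partner of SREBPs on sterol genes) and GGGCGG (the GC box bound by SP1). The windows below are shown for 5 genes that the results return to: Hmgcs1 and Dhcr7, the most abundant of the 18 listed enzymes from HMG-CoA to cholesterol, Mvd, the least abundant, and Insig1 and Insig2, the sterol-dependent brakes. Each is printed 5′ to 3′ in the direction of the gene, with matches in capitals; a reverse-strand CCAAT reads ATTGG and a reverse-strand GGGCGG reads CCGCCC. No match overlaps another in these windows.
Hmgcs1, chr13:119690101-119690400, plus strand: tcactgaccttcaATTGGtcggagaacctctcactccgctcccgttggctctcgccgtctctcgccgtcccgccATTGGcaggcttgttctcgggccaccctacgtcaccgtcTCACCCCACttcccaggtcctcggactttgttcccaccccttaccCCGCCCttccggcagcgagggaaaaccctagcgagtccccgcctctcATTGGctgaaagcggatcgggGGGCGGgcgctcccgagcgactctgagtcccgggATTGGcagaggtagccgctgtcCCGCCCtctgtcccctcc
Mvd, chr8:122443373-122443672, minus strand: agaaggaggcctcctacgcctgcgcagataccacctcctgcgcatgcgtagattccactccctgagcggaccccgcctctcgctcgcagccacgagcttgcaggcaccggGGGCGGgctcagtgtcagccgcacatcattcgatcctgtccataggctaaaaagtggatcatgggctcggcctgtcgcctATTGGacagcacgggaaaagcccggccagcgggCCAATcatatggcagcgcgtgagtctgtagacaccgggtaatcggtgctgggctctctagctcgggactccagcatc
Dhcr7, chr7:143829964-143830263, plus strand: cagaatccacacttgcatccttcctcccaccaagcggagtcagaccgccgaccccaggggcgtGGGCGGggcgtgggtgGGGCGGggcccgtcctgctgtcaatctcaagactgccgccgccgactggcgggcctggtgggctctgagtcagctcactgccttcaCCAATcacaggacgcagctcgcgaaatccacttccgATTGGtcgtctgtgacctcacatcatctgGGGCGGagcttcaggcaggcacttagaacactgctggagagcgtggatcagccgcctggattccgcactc
Insig1, chr5:28071162-28071461, plus strand: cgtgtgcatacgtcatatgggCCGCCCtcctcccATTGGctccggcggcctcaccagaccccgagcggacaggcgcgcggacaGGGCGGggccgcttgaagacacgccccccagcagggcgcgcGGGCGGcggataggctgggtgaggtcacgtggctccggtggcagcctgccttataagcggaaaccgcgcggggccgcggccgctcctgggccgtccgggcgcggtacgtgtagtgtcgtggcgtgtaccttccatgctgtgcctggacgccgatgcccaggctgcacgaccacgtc
Insig2 middle start, chr1:121327975-121328274, minus strand: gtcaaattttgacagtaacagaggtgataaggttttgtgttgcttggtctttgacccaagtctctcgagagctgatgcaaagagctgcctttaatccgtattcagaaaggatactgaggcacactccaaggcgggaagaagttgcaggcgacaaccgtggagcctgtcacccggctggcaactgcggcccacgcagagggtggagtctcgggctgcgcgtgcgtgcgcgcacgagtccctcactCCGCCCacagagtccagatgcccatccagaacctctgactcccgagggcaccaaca
Insig2 upstream start, chr1:121332540-121332839, minus strand: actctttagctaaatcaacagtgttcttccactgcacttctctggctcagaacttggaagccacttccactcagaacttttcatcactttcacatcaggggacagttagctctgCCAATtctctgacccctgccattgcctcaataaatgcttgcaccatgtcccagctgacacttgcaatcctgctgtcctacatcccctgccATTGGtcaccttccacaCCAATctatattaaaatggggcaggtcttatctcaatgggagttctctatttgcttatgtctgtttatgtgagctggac

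The Hmgcs1 window held 1 sterol regulatory element, which begins 137 bases before the RefSeq start, together with 4 CCAAT boxes and 3 GC boxes. Hmgcs1 was the only gene of the 24 whose window held the letters TCACNCCAC, which is 4.17%, beside 1.39% of the 9783 expressed protein-coding genes with a window. A CCAAT box was present in 20 of the 24 genes (83.3%), beside 43.0% of expressed genes and 41.1% of all 27025 genes with a window. Every window of a gene was counted, also of starts with few or no counts: the only CCAAT box of Pmvk lies at a start whose transcript had 0 counts in both libraries, and those of Insig2 lie only at its upstream start. A GC box was present in 21 of the 24 (87.5%), beside 69.4% of expressed genes and 38.2% of all. The 2 printed starts of Insig2 differed in their letters: the upstream window held 3 CCAAT boxes and no GC box, and the middle window held 1 GC box and no CCAAT box. The leading Hmgcs1 transcript of the tables starts 113 bases after the RefSeq start, outside the printed window. Those of Pmvk, Ebp, Sc5d and Dhcr7 also start outside every window of their gene. These matches describe letters in a window and say nothing of whether a factor was bound; sites outside the windows were not searched, and other spellings of a site are not reported.

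All 28 genes were expressed, with at least 1 TPM (a level corrected for transcript length and library depth) in both libraries. Of these, 15 reached 10 TPM in both libraries and 3 reached 50 TPM: Acat1, Dhcr7 and Hmgcs1. The median of the 28 was 13.5 TPM in replicate 2, against 11.2 TPM in replicate 1, or 12.4 ± 1.63 TPM (SD, n = 2). The median expressed protein-coding gene, among 12487 at 1 TPM or more in both libraries, stood at 9.69 TPM, and 16 of the 28 genes lay above it. Mean levels spanned 47.9-fold, with Mvd lowest; Acat1 had the highest mean, above Dhcr7 in replicate 2 and below it in replicate 1. When the genes were ranked by level, the libraries' values overlapped in 13 of the 27 neighbouring pairs, so much of the order is not resolved. Dhcr7 and Hmgcs1 did not overlap with each other or with the gene below Hmgcs1, and Mvd lay below every other gene in both libraries.

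**Figure D1:**
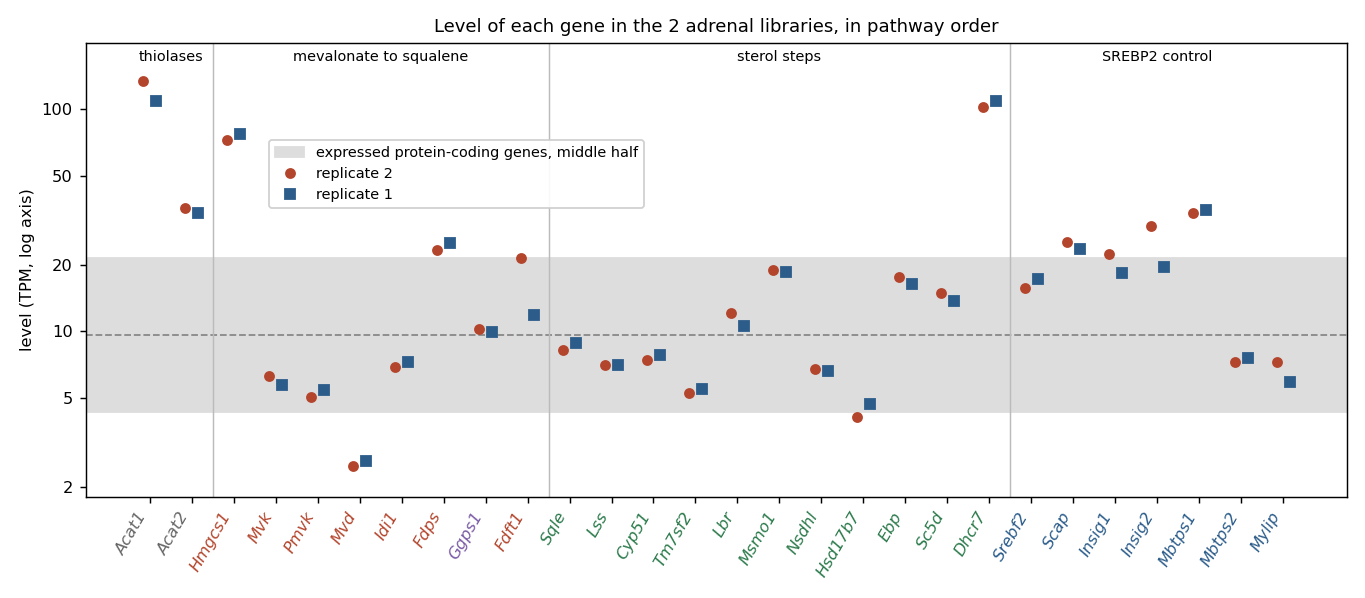
Level of each of the 28 genes in TPM (log axis) in replicate 2 (circles) and replicate 1 (squares), in pathway order; gene names are coloured by role, the grey band spans the lower to the upper quartile of expressed protein-coding genes and the dashed line is their median. Hmgcs1 and Dhcr7, at the start and the end of the chain, stand far above the 16 listed enzymes between them, and Fdft1 and Insig2 are the genes with the widest gap between the libraries.

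The 2 libraries held 38641442 (replicate 2) and 36652695 (replicate 1) expected counts on annotated genes, of which the 28 genes took 0.165% in replicate 2 and 0.162% in replicate 1. They also differed in the markers of tissues other than adrenal. All 8 liver markers were higher in replicate 2, by a median of 3.48-fold, with summed levels of 11870 TPM in replicate 2, against 3724 TPM in replicate 1. All 5 skeletal muscle markers were higher in replicate 2 too, by a median of 2.61-fold (summed levels of 784.75 TPM in replicate 2 against 288.57 TPM in replicate 1). The 4 macrophage markers followed with a median of 1.66-fold, and the 5 granulocyte markers summed to 81.0 TPM (replicate 2) and 25.6 TPM (replicate 1). The 6 cortex markers summed to 4635 TPM in replicate 2, against 5294 TPM in replicate 1, and the 6 chromaffin markers to 1260 TPM (replicate 2) and 1511 TPM (replicate 1), all 12 lower in replicate 2. Of 4 kidney markers, 3 were at 0 counts in both libraries. Adipose markers, given further below, were abundant in both libraries. Liver is a tissue that makes cholesterol, so these values stand beside every level and every ratio given here. TPM levels are those of all RNA in a library and not of adrenal cells alone. The part of other tissues in the levels and ratios was not tested. In bulk RNA, fewer cells of a type and less RNA per cell cannot be told apart.

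The thiolases join acetyl units to acetoacetyl-CoA, in mitochondria (Acat1) and in the cytosol (Acat2). Acat1 stood at 133.91 TPM in replicate 2, against 108.92 TPM in replicate 1, higher in replicate 2. Its cytosolic counterpart Acat2, the thiolase that feeds cholesterol synthesis, stood at 35.9 TPM (replicate 2) and 34.2 TPM (replicate 1), close together. The log2 difference in TPM, Acat2 minus Acat1, was -1.90 in replicate 2 and -1.67 in replicate 1, so Acat1 was the higher in both. Acat2 shares 1477 aligned bases at 97.7% identity with Acat3, its neighbour on chromosome 17, to which the authors' tables assign 427.55 counts in replicate 2 and 189.52 in replicate 1, or 11.97% of the counts of Acat2. The Acat2 value is therefore uncertain by the split of reads between the 2 genes.

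Hmgcs1 (ENSMUSG00000093930.2, chr13:119690379-119708260, mm10), the cytosolic synthase that makes HMG-CoA and a classical SREBP2 target, opened the committed chain at 72.7 TPM in replicate 2, against 77.8 TPM in replicate 1. The next enzymes of the list were far lower. Mevalonate kinase, Mvk, stood at 6.29 TPM (replicate 2) and 5.76 TPM (replicate 1), the phosphomevalonate kinase Pmvk at 5.08 TPM (replicate 2) and 5.47 TPM (replicate 1), and the decarboxylase Mvd at 2.47 TPM (replicate 2) and 2.60 TPM (replicate 1). Idi1, the isomerase of isopentenyl pyrophosphate, stood at 6.89 TPM in replicate 2, against 7.29 TPM in replicate 1. These 4 enzymes formed a low run in which the libraries differed little. Mvd overlaps the opposite-strand gene Gm20388, which held 94.6 counts in replicate 2 and 0 in replicate 1, and Idi1 has pseudogene copies that held 4.65% of its counts. Ggps1 overlaps Arid4b (9.44 TPM in replicate 2 against 9.74 in replicate 1) and Cyp51 overlaps Akap9 (18.19 TPM in replicate 2 against 18.97 in replicate 1), both on the opposite strand.

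Fdps, which joins isoprenoid units to farnesyl pyrophosphate, was higher than its neighbours in the chain, at 23.3 TPM in replicate 2, against 25 TPM in replicate 1. Ggps1 leads from there to geranylgeranyl pyrophosphate, the donor for protein prenylation, and stood at 10.2 TPM (replicate 2) and 9.94 TPM (replicate 1). The 13 genes of the other isoprenoid branches (protein prenylation, dolichol, ubiquinone and tRNA modification), read for comparison, had a median of 10.2 TPM in replicate 2, against 11.2 TPM in replicate 1, and none was apart by more than 25% (the higher library over the lower, in scaled counts), beside 18.3% of all genes tested. The most abundant were Rabggtb and Fnta, subunits of prenyltransferases, at 28.2 ± 1.29 and 27.1 ± 0.495 TPM, and Coq2 of ubiquinone synthesis, at 18.5 ± 0.198 TPM (SD, n = 2).

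Fdft1 (ENSMUSG00000021273.10, chr14:63145150-63179578, mm10), squalene synthase, catalyses the first step that commits farnesyl pyrophosphate to sterols. It stood at 21.5 TPM in replicate 2, against 11.8 TPM in replicate 1, from 1595 expected counts in replicate 2 and 876 in replicate 1. This was the widest gap of the 28 genes, and the enzymes on either side of it in the chain, Fdps and Sqle, did not share it. The ratio of scaled counts, replicate 2 over replicate 1, was 1.82 (95% counting interval 1.68 to 1.98; intervals here are exact binomial and cover counting error only). Fdft1-201, the leading coding transcript, was higher in replicate 2 at 12.8 TPM, against 7.21 TPM in replicate 1, and the retained-intron transcript Fdft1-203 stood at 7.94 TPM (replicate 2) and 3.22 TPM (replicate 1). The second, alignment-free quantification deposited by the authors gave Fdft1 35.4 TPM in replicate 2, against 21.2 TPM in replicate 1, the same direction. Fdft1 overlaps Ctsb, a lysosomal protease gene on the opposite strand, at 182.49 TPM in replicate 2, against 165.75 TPM in replicate 1; the library kit was directional, but whether the counting used strand is not stated, so reads of the 2 genes may not have been told apart. With the liver markers higher in the same library, the part of liver RNA in the Fdft1 gap was not tested.

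The sterol steps began low. Sqle, squalene epoxidase, the oxygen-dependent step that precedes cyclisation, stood at 8.24 TPM in replicate 2, against 8.89 TPM in replicate 1. Lanosterol synthase, Lss, stood at 7.09 TPM in both libraries. The lanosterol demethylase Cyp51, a cytochrome P450, stood at 7.47 TPM (replicate 2) and 7.84 TPM (replicate 1). Much of the Lss signal did not belong to coding transcripts: retained-intron transcripts took 42.9% of its counts in replicate 2 and 42.8% in replicate 1, and its leading transcript by TPM, Lss-202, is annotated as a processed transcript without a coding sequence. That transcript is short and rests on 25.7 counts in replicate 2 against 29.3 in replicate 1, while the coding Lss-201 held 359.78 against 402.14 counts. In this quantification, Lss was the only gene of the 28 whose leading transcript was not annotated as protein-coding; in the second, transcripts of other classes also led in Acat1, Mvd and Fdft1.

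The C14 double bond of the sterol can be reduced by either of 2 proteins, TM7SF2 and the lamin B receptor LBR. Lbr stood at 12.2 TPM in replicate 2, against 10.6 TPM in replicate 1, and Tm7sf2 at 5.29 TPM (replicate 2) and 5.49 TPM (replicate 1). Lbr was thus the higher of the pair in both libraries, with a log2 difference, Tm7sf2 minus Lbr, of -1.20 in replicate 2 and -0.95 in replicate 1. Tm7sf2 overlaps Vps51 on the same strand over a shared exonic stretch of 532 bases, and Vps51 held 866.42 counts in replicate 2 and 854.81 in replicate 1 beside 246.25 (replicate 2) and 214.19 (replicate 1) for Tm7sf2, so its value rests on how the reads were split.

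The C4 demethylation steps are carried out by MSMO1, NSDHL and HSD17B7. Msmo1 was the highest of them, at 18.9 TPM in replicate 2, against 18.6 TPM in replicate 1. Nsdhl stood at 6.80 TPM (replicate 2) and 6.61 TPM (replicate 1), and Hsd17b7, the ketoreductase, at 4.13 TPM (replicate 2) and 4.69 TPM (replicate 1). In gene TPM these 3 genes differed by several fold, in the same order in both libraries. Their leading coding transcripts kept the order, with Msmo1 and Nsdhl closer together. Msmo1-201 held 8.08 TPM (replicate 2) and 11.1 TPM (replicate 1), and Nsdhl-201 6.77 TPM (replicate 2) and 6.61 TPM (replicate 1). Hsd17b7-201 held 2.86 TPM in replicate 2, against 2.96 TPM in replicate 1.

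Ebp, the sterol isomerase, stood at 17.7 TPM in replicate 2, against 16.4 TPM in replicate 1, and Sc5d, the desaturase that follows, at 14.9 TPM (replicate 2) and 13.7 TPM (replicate 1). Dhcr7 (ENSMUSG00000058454.15, chr7:143823145-143848410, mm10), which reduces 7-dehydrocholesterol to cholesterol, stood at 102.83 TPM in replicate 2, against 109.49 TPM in replicate 1. It was the most abundant of the 18 listed enzymes from Hmgcs1 onwards in both libraries. Dhcr7 exceeded the median of the 16 listed enzymes between Hmgcs1 and itself by 14.1-fold in replicate 2 and 14.5-fold in replicate 1, and Hmgcs1 exceeded it by 9.99-fold in replicate 2 and 10.3-fold in replicate 1. Those 16 enzymes ranged from 2.54 TPM (Mvd) to 24.2 TPM (Fdps), as means of the libraries. The second quantification gave the same picture, with Dhcr7 at 173.11 TPM (replicate 2) and 219.81 TPM (replicate 1) and Hmgcs1 at 115.16 TPM (replicate 2) and 128.80 TPM (replicate 1). The leading Dhcr7 transcript, Dhcr7-202, held 75.3% of the gene's TPM in replicate 2 and 76.7% in replicate 1, and its start lies in none of the 3 RefSeq windows of the gene, the printed one included. The printed window lies wholly downstream of that start, and so do the letters marked in it.

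Between the stages of the chain, levels differed little. The 7 enzymes from Hmgcs1 to Fdft1 had a median of 6.89 TPM in replicate 2, against 7.29 TPM in replicate 1, and the 11 sterol enzymes 8.24 TPM (replicate 2) and 8.89 TPM (replicate 1). The median log2(TPM + 0.1) of the first stage was below that of the second, with a difference of -0.27 ± 0.02 (SD, n = 2), which is small beside the spread of enzymes within a stage. Together the 18 enzymes from Hmgcs1 to Dhcr7 summed to 343.75 TPM in replicate 2, against 345.11 TPM in replicate 1. The 6 genes that take up cholesterol and turn it into corticosterone (Scarb1, Star, Cyp11a1, Hsd3b1, Cyp21a1 and Cyp11b1) summed to 5390 TPM in replicate 2, against 6170 TPM in replicate 1. Among them Hsd3b1, the 3-beta-hydroxysteroid dehydrogenase, Star, the mitochondrial cholesterol carrier, and Cyp21a1, the 21-hydroxylase, were highest at 1692 ± 228, 1535 ± 107 and 903 ± 62.2 TPM (SD, n = 2); Cyp11a1, which cleaves the cholesterol side chain, Cyp11b1, the 11-beta-hydroxylase, and Scarb1, the receptor for high-density lipoprotein, stood at 664 ± 59.3, 551 ± 65.1 and 433 ± 29.5 TPM.

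Genes of SREBP2 control stood at moderate levels. Srebf2, which encodes SREBP2, stood at 15.8 TPM in replicate 2, against 17.3 TPM in replicate 1, and its escort Scap at 25.4 TPM (replicate 2) and 23.4 TPM (replicate 1). The related factor gene Srebf1, which drives fatty acid synthesis, was higher than Srebf2, at 41.8 TPM (replicate 2) and 33.6 TPM (replicate 1). Mbtps1, the site-1 protease, stood at 34.2 TPM in replicate 2, against 35.3 TPM in replicate 1, and Mbtps2, the site-2 protease, at 7.29 TPM (replicate 2) and 7.56 TPM (replicate 1). Both proteases act on the same substrate, and the transcript of the first exceeded that of the second by 2.23 in replicate 2 and 2.22 in replicate 1 on the log2 scale. These log2 values differed by less than 0.01 between the libraries, and their mean corresponds to 4.68-fold.

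The INSIG proteins retain the SCAP-SREBP complex. Insig1 (ENSMUSG00000045294.11, chr5:28071363-28078662, mm10), itself an SREBP target, stood at 22.3 TPM in replicate 2, against 18.3 TPM in replicate 1. Insig2 (ENSMUSG00000003721.14, chr1:121304353-121332589, mm10) stood at 29.9 TPM (replicate 2) and 19.5 TPM (replicate 1). Both were higher in replicate 2, with ratios of scaled counts of 1.26 (1.18 to 1.34) for Insig1 and 1.53 (1.42 to 1.64) for Insig2. In gene TPM, Insig1 was below Insig2 in both libraries, by a log2 difference of -0.42 in replicate 2 and -0.10 in replicate 1. The leading coding transcripts stood the other way round. Insig1-201 held 21.8 TPM in replicate 2 and 17.5 TPM in replicate 1, and Insig2-201 held 14.8 TPM (replicate 2) and 10.4 TPM (replicate 1). The order of the 2 genes therefore rests on the other transcripts of Insig2. The 8 genes of INSIG partners and of degradation in the endoplasmic reticulum had a median of 15.8 TPM in replicate 2, against 16.6 TPM in replicate 1, with none apart by more than 25%, beside 18.3% of all genes. The most abundant were the segregase Vcp at 82.2 ± 4.33 TPM, Aup1 at 47.5 ± 0.106 TPM and Erlin2 at 21.1 ± 0.431 TPM (SD, n = 2).

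Mouse liver is known for an Insig2 transcript of its own, started at a separate promoter, though the annotation used here does not say which start that is. The middle start, that of the leading transcript Insig2-201, held 1429.81 counts in replicate 2 and 991.57 in replicate 1, with a count ratio of 1.44 (1.33 to 1.57). Transcripts of the upstream start, 4565 bases upstream of that one, held 189.18 counts in replicate 2 against 63.14 in replicate 1, with a count ratio of 3.00 (2.24 to 4.05). Those of the downstream start held 88.8 counts in replicate 2 against 57.2 in replicate 1, with a count ratio of 1.55 (1.10 to 2.20). The ratio of the upstream start was thus above that of the middle start, with intervals that do not overlap. This split rests on 1 of the 2 quantifications: the second put 0 TPM on the upstream start in both libraries, and put 16.3 TPM in replicate 2, against 2.21 TPM in replicate 1 on the downstream start. Which start carries the difference is therefore not settled by these tables, while Insig2 as a whole was higher in replicate 2 in both, at 61.1 TPM against 35.7 TPM in replicate 1 in the second. The liver markers were higher in the same library, and their part in the Insig2 values was not tested.

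**Figure D2:**
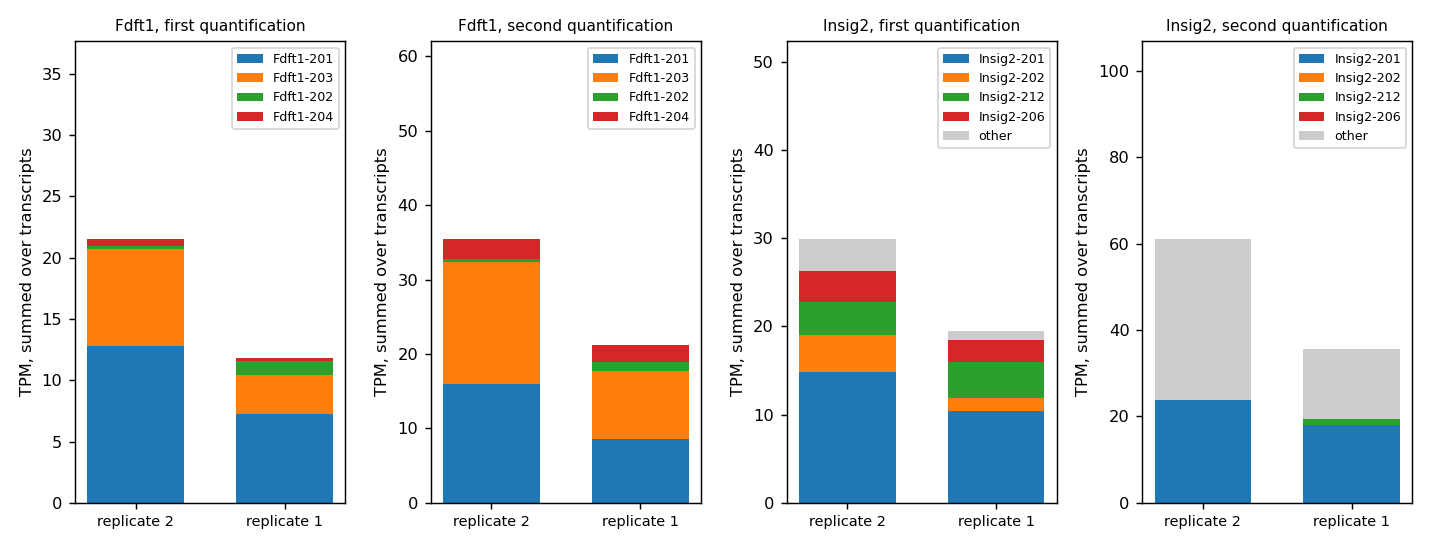
TPM of the transcripts of Fdft1 and Insig2, stacked, in replicate 2 (left bar) and replicate 1 (right bar), by each of the 2 deposited quantifications; grey holds the remaining transcripts. Both genes are higher in replicate 2 in each quantification, while the division among transcripts differs between the quantifications.

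Mylip, an E3 ubiquitin ligase induced by the sterol-sensing LXR receptors, stood at 7.32 TPM in replicate 2, against 5.89 TPM in replicate 1, with a ratio of scaled counts of 1.28 (1.15 to 1.42). Of 6 other LXR-linked genes, 1 was apart by more than 25%, beside 18.3% of all genes: the exporter gene Abcg1, at 4.30 TPM (replicate 2) and 3.55 TPM (replicate 1), with a count ratio of 1.32. The highest means were those of the exporter gene Abca1 at 37.9 ± 4.999 TPM and of Srebf1 at 37.7 ± 5.79 TPM, whose order turned round between the libraries, and of the receptor Nr1h2 at 29.8 ± 0.601 TPM (SD, n = 2). Macrophage markers were higher in replicate 2 as given above, and their part in these values was not tested.

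Set side by side, the 28 ratios showed 5 genes in which the higher library exceeded the lower by more than 25%, all higher in replicate 2: Fdft1, Insig2, Acat1 (1.28), Mylip and Insig1. That is 17.9% of the genes, close to the 18.3% of all 13188 genes whose mean reached 100 counts; among all genes 13.3% were higher and 5.01% lower in replicate 2 by this measure. Past 1.5-fold were 2 of the 28, Fdft1 and Insig2, beside 8.47% of all genes (7.62% higher in replicate 2), and past 2-fold none, beside 4.48%. The counting interval left out 1 for 11 of the 28 (39.3%, beside 46.0% of all genes), of which 7 were higher in replicate 2 (24.1% of all genes were) and 4 were lower (14.3%, beside 21.9% of all genes). The median log2 ratio of the 28 was -0.018, and that of all genes tested was -0.0054. Without Fdft1, the 17 other enzymes from Hmgcs1 to Dhcr7 had ratios between 0.896 (Lss) and 1.18 (Lbr). Ratios use counts and levels use TPM, and the 2 can part where the mix of long and short transcripts shifts: Lss had equal TPM in the libraries with a count ratio of 0.896, and Tm7sf2 had lower TPM in replicate 2 with a count ratio of 1.15.

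**Figure D3:**
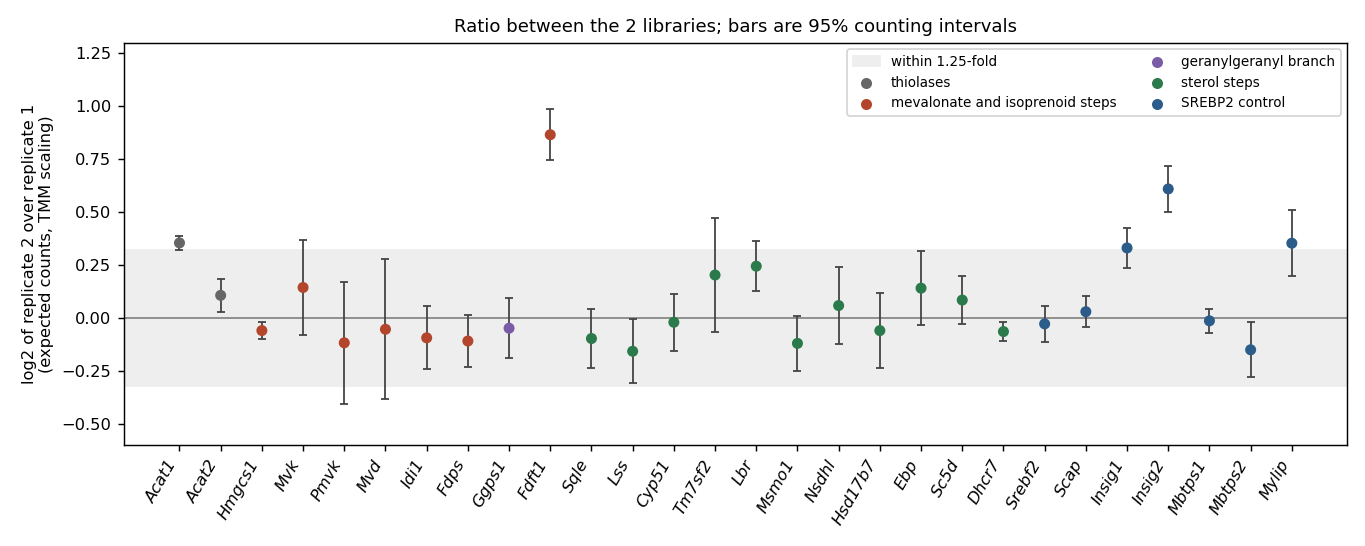
Log2 ratio of scaled expected counts, replicate 2 over replicate 1, for each gene in pathway order, coloured by role; bars are 95% counting intervals and the grey band marks a difference of 25%. Fdft1 (1.82-fold) and Insig2 (1.53-fold) lie well above the band, Acat1, Mylip and Insig1 just above it, and no gene lies below it.

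The scaling decided the genes near the threshold. With library totals or spike-in totals in place of TMM, 2 of the 28 genes were apart by more than 25%, Fdft1 and Insig2, beside 20.1% (library totals) and 19.1% (spike-in totals) of all genes, and Acat1, Insig1 and Mylip were not. With either total, 1 gene was past 1.5-fold, Fdft1, beside 8.02% (library totals) and 8.14% (spike-in totals) of all genes, and Insig2 stood at 1.45-fold with library totals and 1.47-fold with spike-in totals. In the second quantification 6 were apart by more than 25%, the 5 named above and Tm7sf2, beside 18.6% of all genes.

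Of the 2 ketone body genes read for comparison, Bdh1, which reduces acetoacetate, stood at 54.8 TPM in replicate 2, against 14.1 TPM in replicate 1, with a count ratio of 4.00 (3.72 to 4.31). Oxct1, which lets tissues other than liver burn ketones, stood at 43.2 TPM (replicate 2) and 42.7 TPM (replicate 1), a count ratio of 1.05 (1.00 to 1.10). The Bdh1 ratio lies beside the 3.48-fold median of the liver markers, whose part in it was not tested. Acat1, which belongs to ketone metabolism as well as to the head of this pathway, had the smaller ratio of 1.28.

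The 12 lipogenic genes, which answer mainly to SREBP1, had a median of 84.6 TPM in replicate 2, against 89.7 TPM in replicate 1. The most abundant were the desaturase Fads2 at 199.91 ± 3.46 TPM, Acly, which makes cytosolic acetyl-CoA from citrate and so supplies both fatty acid and sterol synthesis, at 188.13 ± 6.93 TPM, and Thrsp at 125.24 ± 31.6 TPM (SD, n = 2). Apart by more than 25% were 3 of the 12, beside 18.3% of all genes, with Thrsp (1.46) and the desaturase Scd1 (1.36) higher and the elongase Elovl6 (0.713) lower in replicate 2. Adipose markers were abundant in both libraries, and their part in the lipogenic levels was not tested. The 5 brown adipocyte markers summed to 3031 TPM in replicate 2, against 3430 TPM in replicate 1. Of these, 2 were higher in replicate 2, and Ucp1 stood at 1149 TPM (replicate 2) and 1566 TPM (replicate 1). The 5 general adipocyte markers summed to 2437 TPM in replicate 2, against 2408 TPM in replicate 1.

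Several sterol steps draw electrons from shared partners. For comparison, 4 electron donor genes were read, and whether Cyb5b serves these steps was not tested. Por, the reductase that serves CYP51 and SQLE, stood at 71.9 ± 4.28 TPM (SD, n = 2). Cyb5b stood at 77.5 ± 7.88 TPM and Cyb5r3 at 63.6 ± 3.42 TPM (SD, n = 2). Cyb5a, the microsomal cytochrome b5, stood at 119.06 TPM in replicate 2, against 71.1 TPM in replicate 1, and with a ratio of 1.67 (1.58 to 1.77) was the only 1 of the 4 apart by more than 25%, beside 18.3% of all genes; the part of the liver markers in that ratio was not tested. Each of the 4 donors was above every enzyme between Hmgcs1 and Dhcr7. Of 3 other sterol-responsive genes, Npc1, the lysosomal cholesterol exporter, stood at 20.96 ± 1.32 TPM, Tmem97 at 13.3 ± 0.431 TPM and the sterol carrier Stard4 at 7.41 ± 0.990 TPM, and none was apart by more than 25%, beside 18.3% of all genes.

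**Figure D4:**
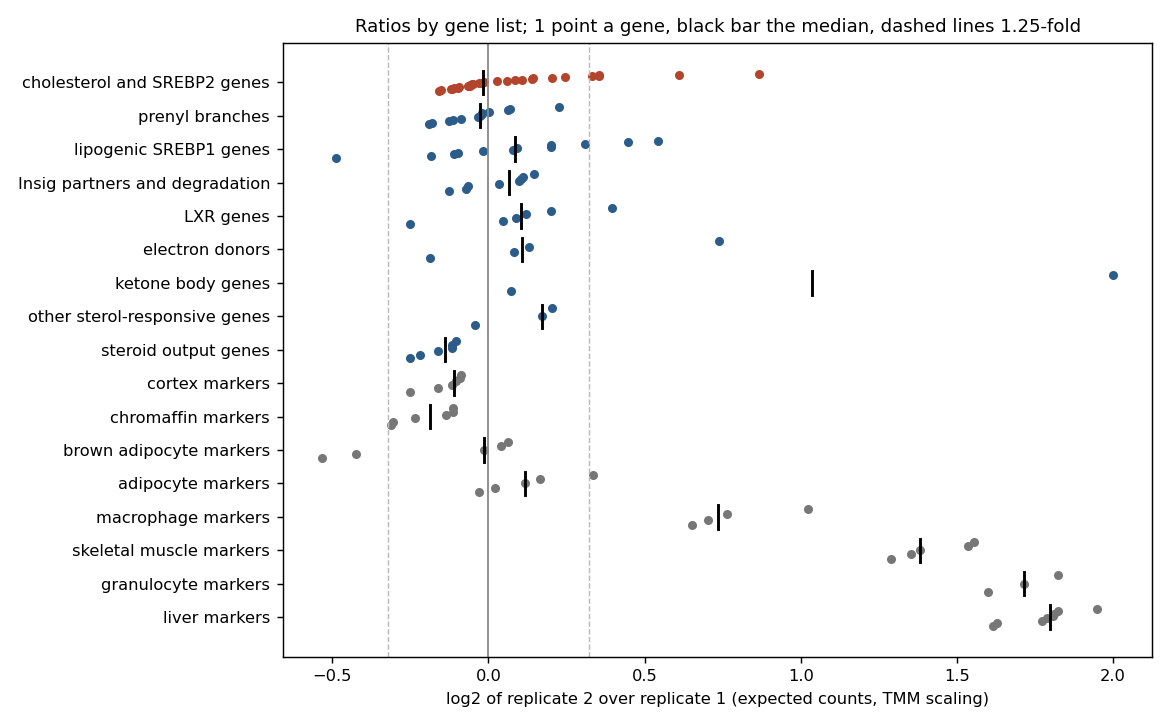
Log2 ratio of scaled counts, replicate 2 over replicate 1, for the 28 genes (top row), the neighbouring pathway lists and the cell type marker lists, with 1 point a gene of at least 100 mean counts. The medians of the 28 genes (-0.018) and of the steroid output genes (-0.14) lie near 0, while liver markers (3.48-fold) lie to the right.

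Transcript by transcript, each of the 28 genes had the same leading transcript in both libraries, and that transcript held a median of 75.3% of its gene's TPM. In 6 genes it held more than 90% in both libraries. The 2 quantifications named the same leading transcript for 18 genes and different ones for 10, among them Hmgcs1 (Hmgcs1-202 in the first, Hmgcs1-201 in the second) and Mvd, where the second put a nonsense-mediated decay transcript first. Gene levels were 1.54-fold higher in the second quantification for the median expressed gene. Relative to that, 25 of the 28 genes lay within 25%, and Acat1 (1.88-fold), Lbr (1.72-fold) and Insig2 (1.27-fold) lay above it. For Acat1 the second quantification placed 56.3% of TPM in replicate 2 and 57.2% in replicate 1 on the short processed transcript Acat1-203, which held 3.83% in replicate 2 and 5.85% in replicate 1 in the first, so the level of Acat1 depends on which table is read more than those of the other 27 genes do.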

How the data were processed

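Total RNA of adrenal gland was measured in 2 libraries that form 1 group. Per the labels and the file headers, the authors quantified reads on mm10 with GENCODE M21 and spike-ins. The deposited gene and transcript tables hold expected counts, not normalised, and TPM over all entries, with column names of RSEM. A second deposited transcript table holds estimated counts and TPM, with column names of kallisto. The aligner is not given in the sources used here, nor are versions. Reads of the CAST/EiJ alleles were quantified on the mm10 reference, and how far mismatches lowered a gene's counts was not tested. Both libraries belong to the same experiment and the labels name no batch.

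The genes and lists were chosen with earlier results of these data known; values of certain genes of the pathway and its lists are not reported here. Named were all 28 genes, the 3 most abundant genes of each pathway list, any list gene more than 2-fold apart with a mean of 100 counts, and the 6 steroid output genes; Abcg1, Scd1, Elovl6 and Cyb5r3, and genes that overlap or copy a listed one, were added after their values were seen. Ratios divide expected counts after TMM scaling (edgeR 4.0.16); log2 ratios add a prior of 0.5 counts, and counts of genes apart by more than 25%, 1.5-fold or 2-fold cover genes whose mean reached 100 counts; fold intervals are exact binomial (Clopper-Pearson, 95%). No model was fitted across conditions. DESeq2 (1.42.0) size factors used genes with at least 100 counts, a choice made after all genes had given equal factors. Reads carry no molecular identifiers, so intervals cover counting error only. The ratio calculation was tested on simulated data. Near-identical genes were sought with BLAST+ 2.17.0 (at least 95% identity over 300 aligned bases, a length raised after shorter matches proved to be repeats). Promoters are RefSeq windows of GRCm38.p6; other motif spellings tried (a longer and 2 looser forms of the sterol element, a TATA box and an E-box) are not reported. Computations used R 4.3.3 and Python 3.11.15.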

Additional observations from a re-analysis of the deposited data

How the results depend on the processing

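The labels put both samples in 1 group, so no groups share replicate numbers. No paired analysis was possible because there is only 1 group. With the second quantification the median level was 21.4 TPM, the stage difference -0.096, the leading share 64.6% and the median log2 ratio 0.012, the log2 differences were -0.52 (Insig1 minus Insig2), -2.60 (Acat2 minus Acat1), -1.97 (Tm7sf2 minus Lbr) and 2.42 (Mbtps1 minus Mbtps2), steroid output genes summed to 9467 TPM, and the log2 levels over the median of the enzymes between were 3.41 (Hmgcs1; 3.34 in the first) and 4.09 (Dhcr7; 3.84). Leaving out each library gave ranges of 11.2 to 13.5 TPM for the median level, -0.28 to -0.25 for the stage difference and 73.7 to 76.4% for the leading share. TPM over nuclear protein-coding genes gave a median level of 37.0 TPM. The stage difference was -0.075 with means and -0.24 with a pseudocount of 1. The median log2 ratio was -0.095 with library totals, -0.074 with spike-in totals, 0.084 with a minimum of 1000 counts and 0.082 as a mean. The number apart by more than 25% was 5, and 2 with library or spike-in totals; past 1.5-fold it was 2 (1 with library or spike-in totals) and past 2-fold 0. Of 112 ratios of single genes under other scalings or the second table, 103 stayed inside their counting interval, 9 did not, and none of the 5 apart by more than 25% changed direction. The other scalings reuse the same counts and shift all ratios by nearly the same amount, so for them this count reflects the size of the shift. With DESeq2 size factors, close to those of TMM, all 28 stayed inside. In the second quantification 27 stayed inside and 1 did not. The highest enzymes, steroid sums, pathway lists and the scaling of the 1.5-fold count were tried under alternatives chosen after seeing the data. The pathway lists hold 13, 12, 8, 6, 4, 2 and 3 genes, with Srebf1 in both the lipogenic and the LXR list. Of their genes 6 were apart by more than 25%, beside 18.3% of all genes. Under the alternatives it was 6 or 7, beside 20.1% (library totals), 19.1% (spike-in totals) and 18.6% (second quantification) of all genes. Genes with few counts (Mvd, Pmvk, Tm7sf2, Mvk) have the widest intervals, and levels have an error from 2 libraries alone.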
